A study of Mus musculus and Homo sapiens
Mus musculus with 12 samples.

Results

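Single nuclei of mouse brain with high Synpo2 RNA were taken from 7 libraries made with snHH-seq, a droplet method that primes total RNA with random primers. A nucleus was included when it had at least 3 Synpo2 UFIs per 10000 UFIs, fewer than 2 Flt1 UFIs and fewer than 5 Lrp2 UFIs per 10000. A UFI, or unique fragment identifier, counts each cDNA fragment once. Flt1, a receptor of endothelial cells, and Lrp2, an endocytic receptor of kidney tubule and other epithelia, served to leave out other cell types. In all, 467 of 11198 nuclei met the rule, which was 4.17%. Of 477 nuclei at or over the Synpo2 limit, 6 were removed by Flt1 and 4 by Lrp2. The working label for these nuclei was thalamic excitatory neurons, with Synpo2, Lef1, Ntng1, Prkcd, Slc17a6 and Tcf7l2 as markers. That label held for only part of them, so they are called Synpo2 nuclei.

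The thalamus relays sensory and motor signals to the cortex through glutamatergic neurons that store glutamate in vesicles with VGLUT2, the product of Slc17a6. Thalamic relay neurons are known for Tcf7l2, a transcription factor of the Wnt pathway that they keep into adult life, and for low-threshold calcium spikes, which T-type calcium channels carry and HCN channels help to time. Synpo2 encodes synaptopodin 2, an actin-binding protein better known from muscle. Lef1 is a DNA-binding partner of beta-catenin like Tcf7l2, Ntng1 encodes netrin-G1 on thalamocortical axons, and Prkcd encodes protein kinase C delta.

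All 7 libraries came from the brains of wild-type male C57BL/6J mice, which the study's methods give as 6 to 8 weeks old. No allele or drug treatment set the libraries apart. Nuclei were fixed with paraformaldehyde, and the groups differed in storage and in reverse transcription primer: No_index_frozen (2 libraries), Index_frozen (2), No_index_fresh (2) and Index_fresh (1). An index, or preindex, is a 10 base barcode in the primer, added during reverse transcription and so ahead of the droplet barcode. The treatment field of 4 of the 7 libraries names the opposite primer from the title. Titles were used, and the barcodes in the files were 40 bases long in the libraries titled Index and 30 bases in those titled No_index. Nothing in the labels says that libraries came from separate mice, so each p-value measures only the spread between these libraries, which may be technical. Whole brains hold many cell types, and no dissection of the thalamus is described.

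The primer with the preindex is shown because the preindex separates the groups. Its first 27 bases are a fixed handle, the 10 lower-case n stand for the preindex, and the capitals mark the 7 random bases that prime on RNA.
snHH-seq_RT_random: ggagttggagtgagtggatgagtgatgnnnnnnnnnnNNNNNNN

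Library totals ran from 8605214 UFIs in No_index_frozen 1 to 42439731 in No_index_fresh 2. The median per nucleus was 10187 and 15385 UFIs in the No_index_frozen libraries, 9928 and 14017 in Index_frozen, 21127 and 27543 in No_index_fresh, and 9012 in Index_fresh. Synpo2 nuclei were about as deep as the rest, with a median of 13557 UFIs and 3521 genes against 12600 UFIs and 3433 genes. Of the 467 nuclei, 53 (11.3%) had at least 2 times their library's median UFIs, compared with 8.20% of all nuclei, and no doublet caller was run on the deposited nuclei. Across the libraries 32 barcodes occurred in 2 libraries, and 3 Synpo2 nuclei carried such a barcode.

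Synpo2 nuclei were found in every library, at a higher share in fresh than in frozen brain. The share was 3.29% of 700 nuclei and 3.88% of 800 in No_index_frozen, 3.13% of 2300 and 3.65% of 1998 in Index_frozen, 4.80% of 1000 and 4.92% of 1300 in No_index_fresh, and 5.03% of 3100 in Index_fresh. All 3 fresh libraries were above all 4 frozen ones. Frozen libraries averaged 3.49% ± 0.34 (SD, n = 4) and fresh libraries 4.92% ± 0.12 (SD, n = 3), a difference of -1.43 percentage points. The two-sided exact permutation p, taken as the doubled tail in the observed direction, was 0.0571. That is the smallest value that a doubled tail can give for 3 libraries against 4, so no share comparison could pass 0.05 by it. By primer, the shares were 3.94% ± 0.98 (SD, n = 3) with and 4.22% ± 0.78 (SD, n = 4) without a preindex, and the groups overlapped (exact permutation p = 0.686). Among Synpo2 nuclei with at least 1 UFI per 10000 of Tcf7l2, the share of all nuclei was 2.41% ± 0.79 in frozen and 3.89% ± 0.78 in fresh libraries (SD, n = 4 and 3), and the groups overlapped, with Index_fresh at 3.0% below No_index_frozen 2 at 3.38% (exact permutation p = 0.114). By primer the same share was 2.19% ± 0.72 with and 3.69% ± 0.80 without a preindex (SD, n = 3 and 4), again with overlap (exact permutation p = 0.114). A share of nuclei cannot tell fewer such cells in the tissue from fewer of their nuclei recovered. Genes of cerebellar granule neurons differed by primer in the other nuclei, as given below, and their part in the shares was not tested.

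**Figure D1:**
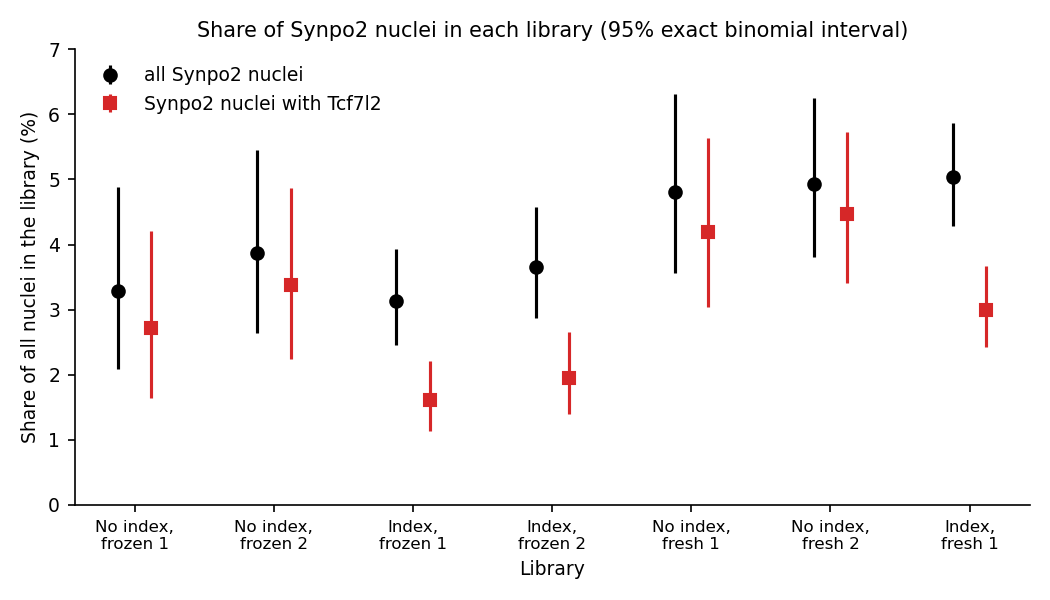
The y axis gives the share of all nuclei (%) and the x axis the 7 libraries. Black circles show all Synpo2 nuclei, red squares those with Tcf7l2 of at least 1 UFI per 10000, and bars the exact 95% binomial interval, which covers counting error only. The black circles of the 3 fresh libraries lie between 4.80% and 5.03%, above those of the 4 frozen libraries.

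The Synpo2 nuclei fell into parts that the rule did not separate. Tcf7l2 reached at least 1 UFI per 10000 in 315 of the 467 nuclei (67.5%), and 152 nuclei were below that. Of these 152, 103 had at least 3 UFIs per 10000 of Rgs9, which encodes a regulator of G protein signalling abundant in striatal projection neurons, and 92 (60.5%) had at least 2 UFIs per 10000 of Gad1 and Gad2 together, the enzymes that make GABA. Hs3st4, a gene used below to choose a comparison set, was at 5 or more UFIs per 10000 in 106 of the 152 (69.7%), in 46 of the 315 with Tcf7l2 (14.6%) and in 36.9% of all other nuclei. In all, 4 nuclei passed both the Tcf7l2 and the Rgs9 limit, and 49 passed neither. Synpo2 itself, the gene of the rule, had a median of 10.1 UFIs per 10000 with Tcf7l2 and 4.07 without it, over a range of 3.01 to 42.5 in all 467. Pooled over libraries, nuclei with Tcf7l2 were deeper, at a median of 15774 against 9921 UFIs. Of those without Tcf7l2, 35 and 34 came from the Index_frozen libraries, 63 from Index_fresh, and 4 to 6 from each library without a preindex. The medians were not split by library.

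The marker levels changed along the Synpo2 scale, as a description with no test. In the 174 nuclei just under the limit, at 2 to 3 UFIs of Synpo2 per 10000, the mean was 1.30 UFIs per 10000 of Tcf7l2, 0.22 of Lef1 and 9.22 of Rgs9. In the 96 nuclei just over it, at 3 to 4, the means were 2.11, 0.51 and 7.40 in the same order. From 6 to 10 the order turned, with 9.90 of Tcf7l2, 6.0 of Lef1 and 2.08 of Rgs9 in 108 nuclei. In 139 nuclei at 10 to 20, the means were 12.3 of Tcf7l2, 11.1 of Lef1 and 0.21 of Rgs9. Rgs9 was thus the highest of these 3 on both sides of the limit, and Tcf7l2 and Lef1 were high only well above it.

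**Figure D2:**
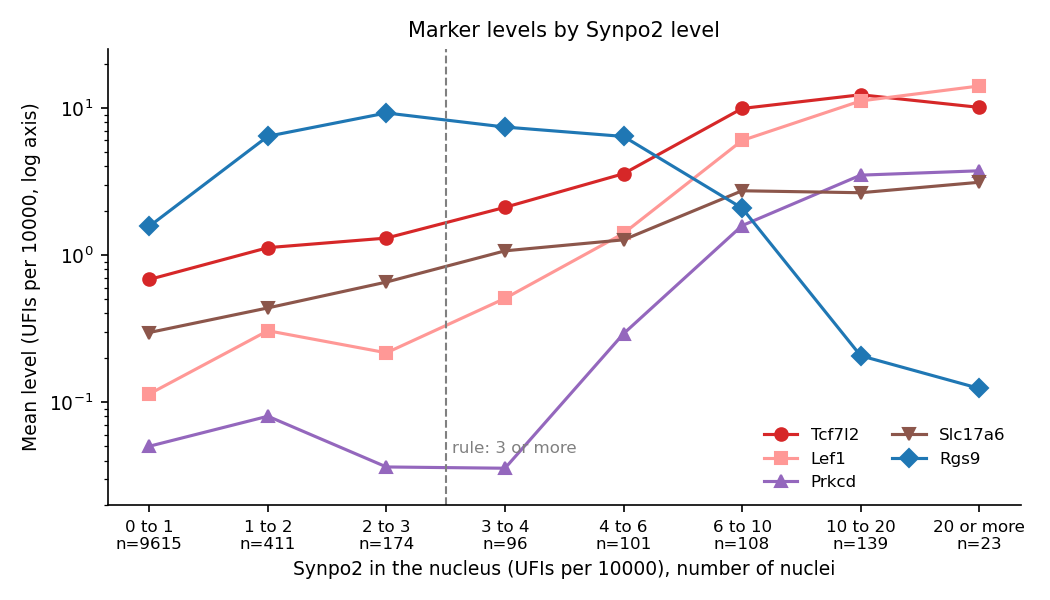
The x axis gives bands of Synpo2 (UFIs per 10000) with the number of nuclei in each, among nuclei within the Flt1 and Lrp2 limits, and the y axis the mean level of 5 genes (UFIs per 10000, log axis). The dashed line marks the limit of 3. Rgs9 lies above the other 4 genes up to the band of 4 to 6 and below all of them from 10 upward.

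From the side of the markers, 240 of 390 nuclei with Lef1 of at least 3 UFIs per 10000 were Synpo2 nuclei (61.5%), as were 315 of 1190 with Tcf7l2 of at least 1 (26.5%) and 107 of 1468 with Rgs9 of at least 3 (7.29%). All 5 other markers had at least 1 UFI in 196 of the 315 Synpo2 nuclei with Tcf7l2 (62.2%). Prkcd had a UFI in 66.7% of these 315 nuclei and in 3.75% of 3604 nuclei chosen for Hs3st4, a set described below, at median depths of 15774 and 12986 UFIs. With every nucleus thinned to 5000 UFIs, the same shares were 51.3% and 1.52%. The source of the Prkcd UFIs in the Hs3st4 nuclei was not tested.

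Counts were summed over the Synpo2 nuclei of each library and given as CPM, counts scaled to the total UFIs of the sum, without correction for gene length. Tcf7l2 was at 977 and 859 CPM in No_index_frozen, 524 and 691 in Index_frozen, 1038 and 1063 in No_index_fresh, and 768 in Index_fresh. Lef1 was at 857, 619, 343, 539, 727, 780 and 721 CPM in the same order. Prkcd was at 251, 282, 110, 153, 207, 262 and 141 CPM. The preindex libraries were the lowest 3 for Tcf7l2 and for Prkcd. In the nuclei with Tcf7l2 alone, Prkcd averaged 253 ± 40.8 CPM and Slc17a6 281 ± 15.8 CPM (SD, n = 7), compared with 4.41 ± 7.54 and 65.3 ± 123 CPM in Synpo2 nuclei without Tcf7l2. Rgs9 went the other way, at 20.6 ± 16.2 CPM with Tcf7l2 and 920 ± 318 CPM without (SD, n = 7). These splits of the Synpo2 nuclei were chosen on Tcf7l2 and are given with no test.

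**Figure D3:**
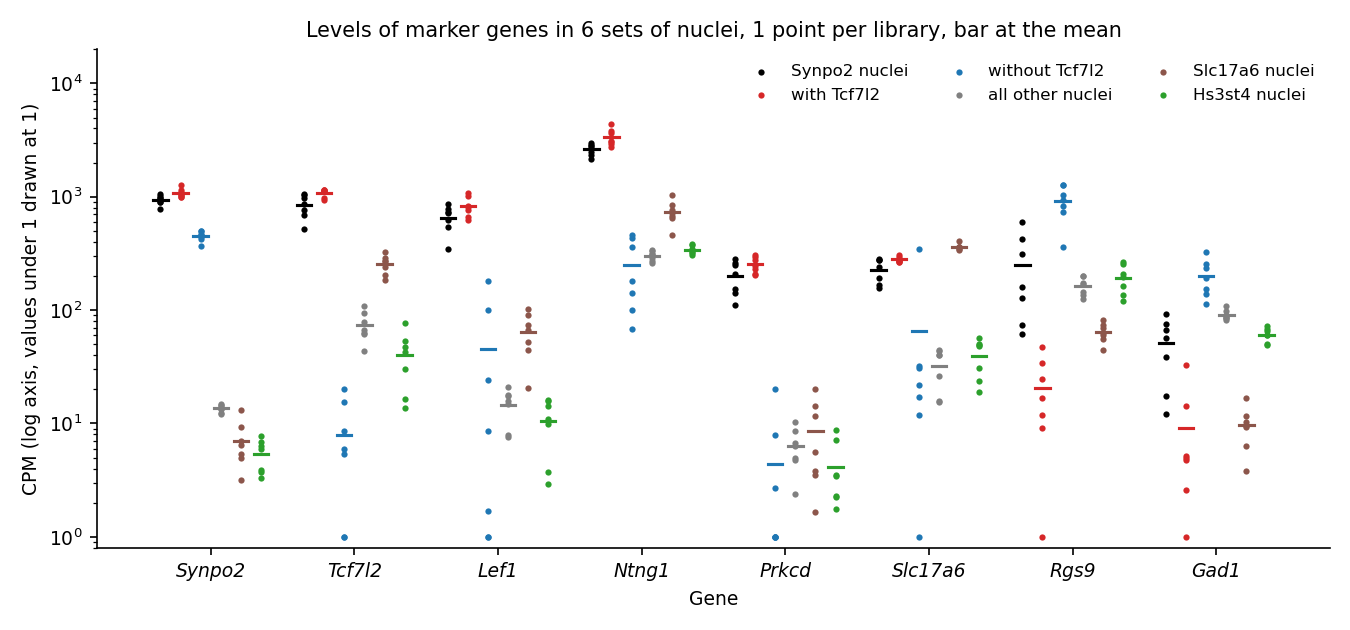
The x axis lists 8 genes and the y axis CPM on a log axis, with values under 1 drawn at 1. Each point is 1 library, each short bar the mean of 7 libraries, and the 6 colours are the Synpo2 nuclei, their parts with and without Tcf7l2, all other nuclei, and the Slc17a6 and Hs3st4 nuclei without Synpo2. Lef1, Ntng1 and Prkcd stand highest in the Synpo2 nuclei with Tcf7l2, and Rgs9 and Gad1 highest in those without.

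Lef1 and Tcf7l2 proteins bind the letters CTTTGA, and the promoter windows of RefSeq (GRCm38.p6), from 250 bases before to 50 after each start, were searched for them on both strands (TCAAAG on the other). All 6 marker genes matched a window, and 2 of their 12 windows held the letters (16.7%), compared with 5257 of all 32851 windows (16.0%). The window of Synpo2 and those of Lef1 and Prkcd with a match are shown, since these genes define and mark the nuclei, and capitals mark the matches. They lie at chr3:123236100-123236399 (minus strand), chr3:131156044-131156343 (plus strand) and chr14:30626159-30626458 (minus strand).
Synpo2: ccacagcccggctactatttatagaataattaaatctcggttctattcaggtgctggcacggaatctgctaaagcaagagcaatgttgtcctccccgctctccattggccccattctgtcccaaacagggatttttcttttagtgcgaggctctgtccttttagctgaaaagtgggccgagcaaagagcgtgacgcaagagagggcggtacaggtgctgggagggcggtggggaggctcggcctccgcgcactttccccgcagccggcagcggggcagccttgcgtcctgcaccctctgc
Lef1: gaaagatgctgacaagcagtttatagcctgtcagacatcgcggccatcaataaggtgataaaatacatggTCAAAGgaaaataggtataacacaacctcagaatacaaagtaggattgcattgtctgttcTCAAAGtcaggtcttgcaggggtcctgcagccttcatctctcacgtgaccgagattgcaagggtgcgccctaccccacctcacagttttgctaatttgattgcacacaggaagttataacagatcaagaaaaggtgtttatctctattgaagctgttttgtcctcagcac
Prkcd: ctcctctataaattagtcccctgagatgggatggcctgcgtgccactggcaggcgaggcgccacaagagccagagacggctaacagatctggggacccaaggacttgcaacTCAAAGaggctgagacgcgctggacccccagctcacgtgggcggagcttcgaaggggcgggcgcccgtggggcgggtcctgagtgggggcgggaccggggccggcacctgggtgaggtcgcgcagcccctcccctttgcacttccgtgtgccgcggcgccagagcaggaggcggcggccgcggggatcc
A match is a description of letters and shows no binding, and the share of windows with a match was close to that of all promoters.

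To find what went with Synpo2, the Synpo2 nuclei were compared with the 10731 other nuclei of the same libraries. Synpo2, Flt1 and Lrp2 were left out, and the test describes genes that differ between nuclei split by Synpo2, not an independent proof of a cell type. The genes with the greatest excess were Abhd12b, Lef1, Prkcd, Wnt3, Plekhg1, Mrvi1, Fam19a4, Vipr2, Vangl1, Grid2ip, Adamts19, Rnf220, Vav3, Scube2 and Tcf7l2. Among the greatest deficits were those of Pdzrn3, Fam19a1, Scube1, Dkk3, Slc9a9, Pde1a, Hs3st2, Mpped1 and Fhl2. Of 12390 genes tested with edgeR's quasi-likelihood test, 1549 were higher (12.5%) and 1708 lower (13.8%) with p-values adjusted by Benjamini-Hochberg and a limit of 0.05. Without the filter on low counts, 30.6% of the calls were higher, compared with 47.6% with it. All 5 other markers were higher: Lef1 by a log2 fold change of 5.59 ± 0.13 (SE here and below), Prkcd by 5.07 ± 0.26, Tcf7l2 by 3.62 ± 0.20, Ntng1 by 3.19 ± 0.09 and Slc17a6 by 2.99 ± 0.12.

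Vipr2, a receptor of the neuropeptides VIP and PACAP, averaged 52.8 ± 17 CPM in the Synpo2 nuclei and 2.99 ± 0.75 CPM in the others (SD, n = 7), a log2 fold change of 4.22 ± 0.18. Plekhg1 and Vav3, which encode exchange factors of small GTPases, were at 698 ± 126 against 31.1 ± 12 CPM and at 1220 ± 112 against 93.5 ± 9.8 CPM. The lowest library of Synpo2 nuclei, at 1040 CPM of Vav3, was above the highest sum of other nuclei, at 110 CPM.

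Transcription factors named for the thalamus were mostly higher. Of 16 on the list 15 were tested, 10 were higher and 2 lower, with a median log2 fold change of 1.65 against -0.01 over all genes. Besides Lef1 and Tcf7l2, the higher genes included Lhx9 (2.38 ± 0.22), Zic1 (2.19 ± 0.17), Prox1 (2.08 ± 0.09), Rorb (1.65 ± 0.12), Foxp2 (1.28 ± 0.11) and Rora (1.15 ± 0.08). Rora, an orphan nuclear receptor, averaged 5012 ± 420 CPM against 2384 ± 198 CPM (SD, n = 7), and Prox1, a homeobox factor, 140 ± 21 against 34.6 ± 4.6 CPM. The lower genes were Nr4a2 (-2.85 ± 0.39) and Mef2c (-1.21 ± 0.08). Gbx2, which patterns the thalamus in development, did not pass the filter on low counts.

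Genes of the Wnt pathway were more often higher than lower. Of 26 genes tested from a list of 29, 13 were higher and 2 lower, with a median of 0.40. The ligands Wnt3 and Wnt9b were higher by 4.82 ± 0.31 and 4.91 ± 0.40, although Wnt9b was at only 12.5 ± 5.0 CPM in the Synpo2 nuclei. Ctnnb1, which encodes beta-catenin, was higher by 0.73 ± 0.08, and the feedback targets Nkd1 and Axin2 by 2.19 ± 0.22 and 0.77 ± 0.12. The 2 lower genes were the receptor gene Lrp5 and the coactivator gene Bcl9. Lrp5 in the other nuclei was at 12.4 and 9.99 CPM in Index_frozen and at 3.86 to 5.60 CPM in the remaining libraries.

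Genes of calcium, HCN and potassium channels moved in both directions. Of 31 tested, 16 were higher and 6 lower, with a median of 0.25. The T-type channel gene Cacna1g was at 409 and 591 CPM in No_index_frozen, 220 and 281 in Index_frozen, 482 and 523 in No_index_fresh, and 241 in Index_fresh, and the other nuclei of these libraries averaged 107 ± 32 CPM. All 7 libraries of Synpo2 nuclei lay above the highest sum of other nuclei, at 151 CPM, and the log2 fold change was 1.94 ± 0.11. Cacna1h, a further T-type gene, was lower by 0.86 ± 0.29 on the log2 scale with an adjusted p of 0.046 (edgeR), a call that was lost without any 1 of 5 libraries (No_index_frozen 1 or 2, No_index_fresh 1 or 2, or Index_fresh 1). Cacna1h averaged 7.66 ± 4.55 CPM in the Synpo2 nuclei with Tcf7l2, 128 ± 61.7 CPM in those without and 58.0 ± 7.68 CPM in the other nuclei (SD, n = 7), and the log2 fold change of the part with Tcf7l2 was -3.0 ± 0.20.

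Among the HCN genes, Hcn4, which encodes the slowest of these pacemaker channels, was higher by 2.62 ± 0.12 and Hcn2 by 0.61 ± 0.10 on the log2 scale. Among potassium channels, Kcnc2, a Kv3 subunit of fast-spiking cells, was higher by 2.16 ± 0.10, Kcnn3, a calcium-activated channel, by 1.69 ± 0.09, and Kcnip4, a Kv4 partner, by 1.34 ± 0.07. The L-type gene Cacna1c was higher by 1.41 ± 0.07 and the R-type gene Cacna1e was lower, at -1.23 ± 0.15.

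Glutamate genes were evenly divided, with 11 higher and 10 lower of 28 tested and a median of 0.16. The transporter genes went in opposite directions: Slc17a6 was at 228 ± 55 against 32.2 ± 13 CPM, and Slc17a7, which encodes VGLUT1, at 42.5 ± 13 against 116 ± 34 CPM (log2 fold change -1.41 ± 0.09). The NMDA receptor subunit gene Grin2c was higher by 2.66 ± 0.17, and the metabotropic receptor gene Grm4 by 1.82 ± 0.14. The AMPA receptor subunit genes Gria1, Gria2 and Gria3 were all lower, at -1.0 ± 0.10, -0.84 ± 0.12 and -0.41 ± 0.10. Grm3 was lower at -1.09 ± 0.20.

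Of 14 GABA receptor genes tested, 6 were higher and 5 lower, with a median of -0.03. Gabra4 and Gabrd, whose subunits form extrasynaptic receptors in thalamic relay neurons, were higher by 1.66 ± 0.09 and 1.36 ± 0.13. Gabrb2 was higher by 0.54 ± 0.07, and Gabra5 (-0.81 ± 0.16) and Gabra2 (-0.76 ± 0.17) were lower. Gabra4 was at 505 ± 84 CPM, with a lowest library of 425 CPM, above the highest sum of other nuclei at 180 CPM.

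**Figure D4:**
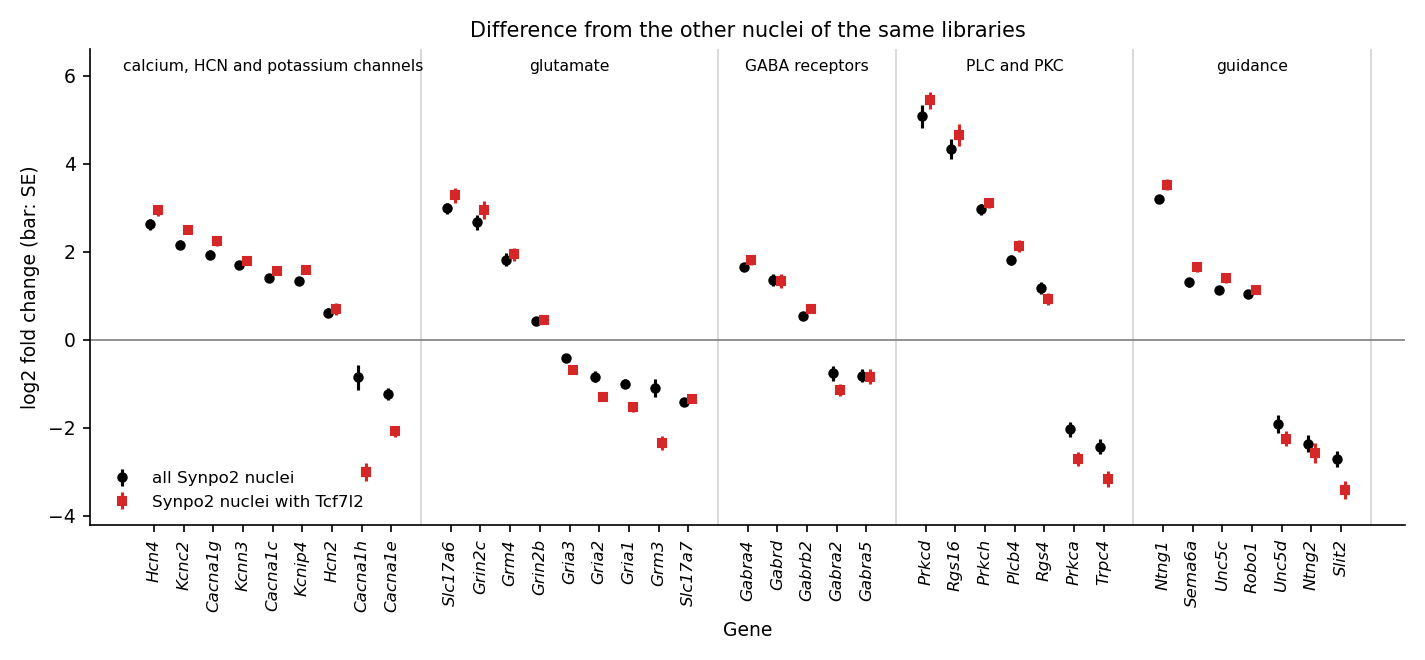
The y axis gives the log2 fold change of Synpo2 nuclei against the other nuclei of the same libraries and the x axis named genes in 5 groups. Black circles show all Synpo2 nuclei, red squares those with Tcf7l2, and bars the SE. Each gene shown lies on the same side of 0 in both sets, with Hcn4, Kcnc2 and Cacna1g above it and Cacna1e below.

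In phospholipase C and protein kinase C signalling, 9 genes were higher and 7 lower of 23 tested. Kinase genes of this family split, since Prkcd and Prkch (2.96 ± 0.12) were higher and Prkca was lower at -2.04 ± 0.16. The channel gene Trpc4 was lower at -2.43 ± 0.17. Plcb4, a phospholipase that acts after metabotropic receptors, was higher by 1.81 ± 0.12, as were Rgs16 (4.33 ± 0.23) and Rgs4 (1.18 ± 0.14), which end G protein signals. The median of the list was -0.15.

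Axon guidance genes were more often lower, with 9 higher and 16 lower of 35 and a median of -0.16. Ntng1 was the abundant exception, at 2626 ± 303 against 303 ± 30 CPM (SD, n = 7), while its relative Ntng2 was lower at -2.36 ± 0.19. Sema6a (1.30 ± 0.11), Unc5c (1.13 ± 0.09) and Robo1 (1.05 ± 0.09) were higher, and the ligand gene Slit2 (-2.71 ± 0.17) and the netrin receptor gene Unc5d (-1.91 ± 0.20) lower. In the synaptopodin family and its actin partners, 2 genes were higher and 2 lower of 9 tested. Synpo, the founding member of the family, was lower in Synpo2 nuclei at -1.01 ± 0.15, and Palld was higher by 1.70 ± 0.35.

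Genes named for subdivisions of the thalamus did not point to a single one. Of 7 first-order genes 5 were higher, among them Tnnt1 (4.11 ± 0.29) and Grid2ip (4.06 ± 0.34), and 1 was lower. Scn4b was higher by 0.89 ± 0.26 but lay at -0.41 in the nuclei with Tcf7l2. Of 5 higher-order genes 2 were higher, Necab1 (1.02 ± 0.13) and Cdh6 (0.61 ± 0.14), and 1 was lower. Calb2 (1.35 ± 0.35) and Drd2 (1.04 ± 0.35) were the 2 higher of 3 midline genes tested, and Drd2 also marks striatal neurons and turned to -1.23 in the nuclei with Tcf7l2. Drd2 and Scn4b were not called without Index_frozen 1, Index_frozen 2, No_index_fresh 1 or Index_fresh 1, and Calb2 was not called without No_index_fresh 1. Of 8 habenula genes only Nwd2 was tested, and it was lower at -2.24 ± 0.14.

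Markers of other neurons were checked in the same way. Of 9 cortical genes 7 were lower and 1, Cux2, was higher at 0.62 ± 0.11. Of 9 genes of GABA neurons 4 were lower, and Adarb2, also on this list, was higher at 1.75 ± 0.12. Gad2 was at 40.5 ± 19 against 102 ± 11 CPM (log2 fold change -1.42 ± 0.22), and Gad1 was not called at -0.82 ± 0.29 (edgeR adjusted p = 0.055), though it was with DESeq2. Of 7 striatal genes Drd2 and Pde10a (0.52 ± 0.14) were higher and none lower. In the nuclei with Tcf7l2, by contrast, 8 of the 9 GABA neuron genes and 6 of the 7 striatal genes were lower, beside 18.1% of the 12338 genes tested there, and Rgs9 went from 0.39 ± 0.30 (edgeR adjusted p = 0.42) to -2.85.

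Counts for markers of glia and other cells stand against 12.5% higher and 13.8% lower of all genes tested. Of 7 oligodendrocyte genes tested 3 were lower, and of 8 astrocyte genes 1 was lower, a share near that of all genes. For mural cells 1 of 3, for fibroblasts 1 of 1, for choroid plexus 2 of 3 and for cerebellar granule neurons 3 of 4 genes tested were lower, and no gene of these lists was higher. The cerebellar list includes Rbfox3, abundant in both sets at 949 ± 124 against 1434 ± 56.1 CPM (SD, n = 7), which does not set granule neurons apart. Fat2 and Cbln3 of that list were at 0.79 CPM or less in both sets of the preindex libraries. Their differences thus rest on the 4 libraries without a preindex. Of 5 oligodendrocyte precursor genes 1, Lhfpl3, was higher and 1 lower, and 4 microglial genes gave no call. The precursor list summed to 1005 CPM (range 725 to 1390) in Synpo2 nuclei against 505 CPM (435 to 554) in the others, with Lhfpl3 its most abundant gene in both. All 4 endothelial genes and 2 of 3 kidney genes tested were lower, and nothing is read from these counts, since the limits on Flt1 and Lrp2 take nuclei high in either gene out of the Synpo2 nuclei and leave them among the others. The summed level of the astrocyte list was 1185 CPM (range 858 to 1743) in Synpo2 nuclei against 1066 CPM (831 to 1317) in the others. By the mean over libraries Slc1a2 was the most abundant gene of the list in both. In the Synpo2 nuclei of the preindex libraries Slc4a4 was above Slc1a2, at 1032 against 644 and 713 against 498 CPM in Index_frozen and 622 against 388 CPM in Index_fresh. In the part with Tcf7l2 of these libraries Slc4a4 was below Slc1a2, at 580 against 940, 500 against 641 and 419 against 492 CPM. In the part without Tcf7l2 Slc4a4 averaged 1023 ± 418 and Slc1a2 305 ± 265 CPM (SD, n = 7). The microglial list summed to 16.8 against 21.1 CPM, with C1qa at 0 in the Synpo2 nuclei. The Index_frozen libraries held RNA of kidney tubule genes, which summed to 960 and 918 CPM in their other nuclei and to at most 20.4 CPM in the other nuclei of each of the remaining 5 libraries. In the Synpo2 nuclei of Index_frozen 1 and 2 the list, which includes Lrp2 of the rule, summed to 184 and 8.61 CPM. Slc12a3 was its most abundant gene in Index_frozen 1, at 79.8 CPM, and Cubn in Index_frozen 2, at 3.91 CPM, and Slc22a6 was at 0 in the Synpo2 nuclei of all libraries. In Index_frozen 1 the list summed to 322 CPM in the Synpo2 nuclei with Tcf7l2 and to 27.0 CPM in those without, so that the part with Tcf7l2 carried more of it there. Slc12a3 and Umod, genes of the distal tubule and the thick ascending limb, were at 148 and 21.5 CPM in that part, Umod with 9 UFIs. In the other nuclei of the library they were at 113 and 19.7 CPM. Every other gene of the list was lower in that part than in the other nuclei. Among them were Slc12a1 (23.9 against 101 CPM), Pkhd1 (112 against 249) and Slc34a1 (7.16 against 222). Cubn was at 0 against 67.9 CPM and Lrp2, the gene of the limit, at 9.54 against 179 CPM. The limit on Lrp2 thus did not keep all kidney tubule RNA out of the Synpo2 nuclei. Of the genes counted above, Kl of the choroid plexus list was at 23.3 and 28.7 CPM in the other nuclei of Index_frozen and at 2.57 to 5.35 CPM in the remaining libraries, and Mobp of the oligodendrocyte list at 53.2 and 53.0 against 20.5 to 27.4 CPM. The part of this RNA in those counts and in the comparisons by storage and primer was not tested. No liver gene passed the filter, but the other nuclei of Index_fresh stood apart, with Cps1 at 12.6, Cyp2b9 at 11.8 and Alb at 8.35 CPM. Each of these genes was at 0.63 CPM or less in the other nuclei of the remaining libraries. In the Synpo2 nuclei of Index_fresh each was at 0.55 CPM or less.

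Immediate early genes, which neurons switch on with activity, were lower for 4 of 6 tested, including Arc (-1.49 ± 0.37) and Egr1 (-0.96 ± 0.24). Of 8 nuclear and small noncoding RNAs, Meg3 (0.37 ± 0.07) and Snhg11 (0.37 ± 0.07) were higher and Neat1 (-1.99 ± 0.34) and Miat (-0.50 ± 0.09) lower. Neat1 in the other nuclei was at 139 and 128 CPM in the Index_frozen libraries, those with the kidney RNA, and at 13.2 to 19.0 CPM in the remaining 5, and the part of that RNA in its difference was not tested. Against the Hs3st4 nuclei described below, Neat1 was at 10.8 ± 11.2 compared with 7.94 ± 3.07 CPM (SD, n = 7) and was not called (edgeR adjusted p = 0.72).

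The first comparison set was the 517 nuclei with at least 2 Slc17a6 UFIs and fewer than 1 Synpo2 UFI per 10000, which are glutamatergic by that gene. Of these nuclei 232 (44.9%) also had at least 5 UFIs per 10000 of Hs3st4. Against them the Synpo2 nuclei kept an excess of the other markers. Prkcd was at 201 ± 67 against 8.66 ± 6.8 CPM (SD, n = 7; log2 fold change 4.68 ± 0.30), Lef1 at 655 ± 172 against 64.6 ± 28 CPM (3.51 ± 0.12), Ntng1 at 2626 ± 303 against 734 ± 178 CPM (1.99 ± 0.14) and Tcf7l2 at 846 ± 198 against 255 ± 49 CPM (1.85 ± 0.11). In each of these 4 genes the lowest library of Synpo2 nuclei exceeded the highest of the Slc17a6 nuclei. Of 8034 genes tested with edgeR, 1080 were higher (13.4%) and 1153 lower (14.4%).

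The genes with the greatest excess over the Slc17a6 nuclei were Sh3rf2, Abhd12b, Prkcd, Plekhg1, Grid2ip, Cnksr3, Vangl1, Lef1, Vipr2, Rnf220, Mrvi1, Prkch, Tspear, Wnt3 and Vav3. Tspear overlaps keratin-associated genes, and its reads are uncertain. The lower genes were led by Ebf3, Mdga1, Slit2, Scube1, Fam19a1, Frmpd3, Erbb4, Syt2, Elfn1 and Slc9a9. Ebf3, a transcription factor, was at 7.21 ± 9.0 against 172 ± 45 CPM (SD, n = 7; log2 fold change -4.53 ± 0.35), and Erbb4, a neuregulin receptor, at 176 ± 73 against 1095 ± 264 CPM (-2.59 ± 0.17).

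The transcription factor and receptor lists were read against the Slc17a6 nuclei as well. The thalamic transcription factors had 8 higher and 0 lower of 12 tested, with a median of 1.12 against -0.03 over all genes, and Prox1 was higher by 2.82 ± 0.20. Gabra4 and Gabrd were higher by 2.54 ± 0.16 and 2.62 ± 0.20. Of the 14 GABA receptor genes 5 were higher and 7 lower. Grin2c (2.96 ± 0.22) and Grin2b (1.25 ± 0.10) were among 10 higher glutamate genes of 26, with 3 lower. No test of one comparison against the other was made, since both share the Synpo2 nuclei.

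Among the channels, 13 were higher and 6 lower of 30, including Kcnc2 (1.95 ± 0.12), Kcnn3 (1.86 ± 0.20), Cacna1g (1.25 ± 0.14) and Hcn4 (1.04 ± 0.16). Wnt genes were higher in 10 and lower in 1 of 20, protein kinase C genes in 12 and 3 of 23, and guidance genes in 9 and 13 of 34. Epha4, an ephrin receptor gene, was higher by 1.32 ± 0.10. Calb2, a calcium-binding protein gene of midline thalamus, was lower at -0.99 ± 0.29, and Meg3 at -0.31 ± 0.09. Calb2 was not called without Index_fresh 1 or No_index_fresh 2, and Meg3 was not called without any 1 of 5 libraries (No_index_frozen 2, Index_frozen 1 or 2, No_index_fresh 1 or Index_fresh 1). All 4 striatal genes tested were higher, Rgs9 by 1.72 ± 0.31, but Rgs9 lay at -1.43 in the nuclei with Tcf7l2.

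The other comparison set was 3604 nuclei with at least 5 Hs3st4 UFIs and fewer than 1 Synpo2 UFI per 10000. Hs3st4 is known from deep cortical neurons that project to the thalamus, but 552 of these nuclei also had Rgs9 of at least 3 UFIs per 10000, and 232 were in both comparison sets, so they are named by their rule. Tcf7l2 (4.60 ± 0.19), Lef1 (6.12 ± 0.20), Prkcd (5.48 ± 0.21) and Prox1 (3.45 ± 0.16) were higher in Synpo2 nuclei, and Nr4a2 (-3.49 ± 0.34) and Slc17a7 (-1.74 ± 0.10) lower. Of 10255 genes tested with edgeR, 3045 were called (29.7%), 1539 higher and 1506 lower, and without the filter on low counts 35.2% of the calls were higher, compared with 50.5% with it. The greatest excess was in Abhd12b, Lef1, Plekhg1, Mrvi1, Prkcd, Wnt3, Fam19a4, Grid2ip, Vangl1, Vipr2, Tcf7l2, Rnf220, Vav3, Adamts19 and Cnksr3, and among the greatest deficits were those of Scube1, Pdzrn3, Hs3st2, Dkk3, Pde1a, Fam19a1, Mpped1, Htr2a and Ipcef1. Htr2a, a serotonin receptor gene, was at 7.29 ± 6.1 against 65.9 ± 10 CPM (SD, n = 7). Ipcef1 overlaps Oprm1, and Syt2 in the comparison before overlaps Ppp1r12b, and reads of each pair are uncertain, since UFIs are described as strand-specific but the strand setting of the counter is not given.

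Storage moved few genes of the Synpo2 nuclei. Among the genes higher after freezing were mt-Nd4, mt-Nd5, mt-Nd1 and mt-Nd2 of the mitochondrial genome. Per library, mt-Nd5, a subunit of respiratory complex I, was at 339 and 285 CPM in No_index_frozen, 220 and 133 in Index_frozen, 80.8 and 87.3 in No_index_fresh, and 88.5 in Index_fresh. All 4 frozen libraries were above all 3 fresh ones. Of 10201 genes tested with edgeR, with the primer as a term, 9 were called (0.0882%), 6 higher and 3 lower in frozen, and 557 had an unadjusted p under 0.05. The log2 fold change was 1.72 ± 0.26 for mt-Nd4, 1.51 ± 0.22 for mt-Nd5, 1.26 ± 0.20 for mt-Nd1 and 1.22 ± 0.19 for mt-Nd2, at adjusted p from 0.022 to 0.025.

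Rgs6, a regulator of G protein signalling, was higher in frozen by 1.10 ± 0.17, at 547 and 609 CPM in No_index_frozen, 870 and 580 in Index_frozen, 246 and 240 in No_index_fresh, and 402 in Index_fresh. The groups did not overlap. Fam196b and Snx4 were lower in frozen, at -1.51 ± 0.24 and -1.30 ± 0.21, and Fam196b lies within Dock2 on the other strand. No list of genes had a member called for storage, and none of the 5 other markers was called (edgeR adjusted p from 0.90 to 0.99). Without No_index_frozen 2, Index_frozen 1 or No_index_fresh 2 no gene was called, without No_index_frozen 1 there was 1, without No_index_fresh 1 there were 4, without Index_frozen 2 there were 16, and without Index_fresh 1 there were 31.

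In the nuclei with Tcf7l2, 18 of 8488 genes were called for storage (0.212%), 12 higher and 6 lower. They included mt-Co1 (1.73), mt-Cytb (1.34), mt-Rnr1 (1.48) and mt-Rnr2 (1.43) besides the 4 mitochondrial genes above, and Rgs6 at 1.20. In the other nuclei of the same libraries mt-Nd5 was at 228 to 452 CPM in frozen and 143 to 160 CPM in fresh libraries, and the difference between the sets was not called for it (0.30 ± 0.18, edgeR adjusted p = 0.98). The storage difference itself differed between Synpo2 nuclei and the others for 2 of 12390 genes (0.0161%), Rgs6 and Bnc2, and 675 had an unadjusted p under 0.05.

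The primer went with the make-up of the Synpo2 nuclei. Nuclei with Tcf7l2 were 82.6% and 87.1% of them in No_index_frozen, 51.4% and 53.4% in Index_frozen, 87.5% and 90.6% in No_index_fresh, and 59.6% in Index_fresh. All 3 preindex libraries were below all 4 without a preindex, at 54.8% ± 4.28 (SD, n = 3) against 87.0% ± 3.30 (SD, n = 4). The two-sided exact permutation p was 0.0571, the smallest that the doubled tail can give. Nuclei with Rgs9 of at least 3 UFIs per 10000 made up 32.7% ± 5.75 with and 8.08% ± 3.37 without a preindex (exact permutation p = 0.0571, n = 3 and 4).

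Rgs9 nuclei were also a higher share of all nuclei with a preindex. Nuclei with Rgs9 of at least 3 and Tcf7l2 under 1 UFI per 10000 were 14.4% ± 0.553 with and 9.82% ± 2.53 without it (SD, n = 3 and 4, exact permutation p = 0.0571). Of these nuclei, 8.55% ± 1.12 with and 3.22% ± 2.21 without a preindex met the Synpo2 limit, and Synpo2 in the nuclei with Rgs9 was at 77.9 ± 4.68 against 62.8 ± 19.7 CPM, with overlap of the groups. Both are descriptions with no test, since Synpo2 is the gene of the rule. These comparisons were added after the data had been seen. Depth, free RNA and the capture of these nuclei were not tested as sources of the difference. The nuclei other than Synpo2 nuclei also differed by primer in genes of the cerebellar granule neuron list. Fat2 was there at 34.9 to 89.7 CPM without a preindex and at 0.27 to 0.79 CPM with it. Cbln3 was at 15.6 to 35.8 and at 0.04 to 0.10 CPM. The part of such nuclei in the shares by primer was not tested.

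Genes of striatal neurons were among those that differed by primer. Of 10201 genes, 254 were higher with a preindex (2.49%) and 55 lower (0.539%) in edgeR's test with storage as a term. The 10 higher genes of greatest change were Sh3rf2, Myo5b, Phactr1, Ngef, Meis1, Cdh9, Rgs9, Actn2, Baiap2 and Phex. Rgs9 was at 127 and 73.4 CPM in No_index_frozen, 598 and 420 in Index_frozen, 161 and 61.9 in No_index_fresh, and 314 in Index_fresh, and the log2 fold change was 2.13 ± 0.30. Of 7 striatal genes 4 were higher and none lower, with a median of 1.70 against -0.03 over all genes. Of the 5 other markers only Prkcd was called, lower at -0.75 ± 0.16 (adjusted p = 0.018, edgeR), and it was not called without Index_frozen 1, No_index_frozen 2 or No_index_fresh 2. Cacna1g (-0.89 ± 0.15) and Grin2c (-1.12 ± 0.21) were lower as well.

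Within the nuclei with Tcf7l2, 17 of 8488 genes were called for the primer (0.2%), 9 higher and 8 lower. Of the 10 higher genes above, 6 turned to the other side, among them Rgs9 at -1.22 (edgeR adjusted p = 0.39) and Phactr1 at -0.22, Myo5b (0.90) and Ngef (0.58) were not called, and Actn2 and Phex did not pass the filter. Prkcd was at -0.24 (edgeR adjusted p = 0.61). The 9 lower genes named were all below 0 there too, although only Cd44 and Megf11 were called. Cd44, a hyaluronan receptor, was at -2.32 ± 0.19 in all Synpo2 nuclei and -2.11 in those with Tcf7l2, and Megf11 at -2.16 ± 0.27 and -2.50. Kctd16 (1.16), Kcnq3 (0.81) and Rn7sk (-0.96), the RNA of the 7SK particle, were called in the nuclei with Tcf7l2 too.

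Cd44 was at 109 and 105 CPM in No_index_frozen, 21.5 and 24.3 in Index_frozen, 120 and 121 in No_index_fresh, and 17.7 in Index_fresh. The other nuclei had nearly the same levels, from 107 to 113 CPM without and from 14.5 to 23.1 CPM with a preindex, and the difference between the sets was 0.19 ± 0.19 (edgeR adjusted p = 0.86). The other lower genes named were Zfp791, Taco1, Mir6236, Mtss1l, Rn18s-rs5, Wipf1 and Wscd1, of which Rn18s-rs5 has near-identical copies and its reads are uncertain. The primer difference differed between Synpo2 nuclei and the others for 124 of 12390 genes (1.0%), 99 of them with a higher value in Synpo2 nuclei.

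**Figure D5:**
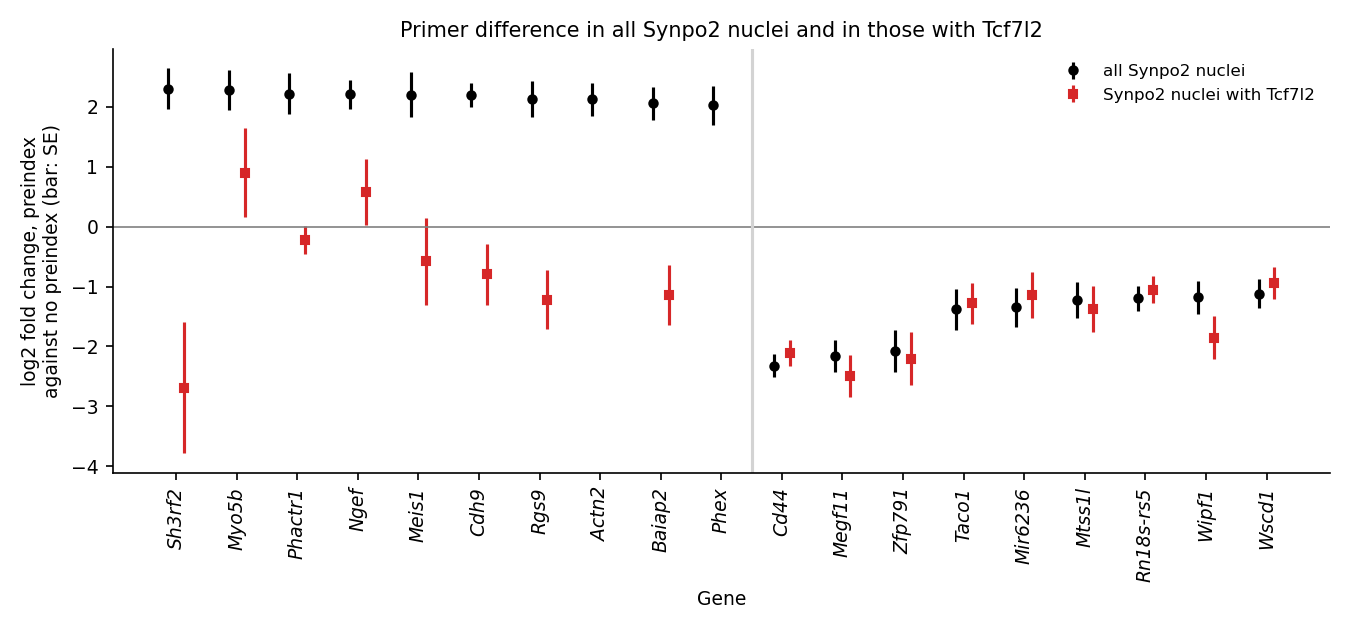
The y axis gives the log2 fold change with a preindex against without, from the fit with storage as a term, and the x axis the 10 higher and 9 lower genes named. Black circles show all Synpo2 nuclei, red squares those with Tcf7l2 where the gene passed the filter, and bars the SE. The 10 higher genes lie near 2 in all Synpo2 nuclei. In those with Tcf7l2, Sh3rf2, Phactr1, Meis1, Cdh9, Rgs9 and Baiap2 lie below 0, and Myo5b and Ngef between 0 and 1. The lower genes stay below 0 in both.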

How the data were processed

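The 7 brain files hold whole-number counts of UFIs per gene and barcode, as deposited. The authors trimmed poly-A tails with Cutadapt, picked barcodes with UMI-tools at a manual cutoff, aligned reads with STAR, kept unique alignments, assigned them to whole genes with featureCounts, introns included, and counted UFIs. The methods text names GRCh38 and the processing notes GRCh38, GRCm38 and mm10; UFI counts are described as strand-specific, but the strand setting of the counter is not given in the sources used here. Whether the manual cutoff against poor nuclei and doublets that the methods give for patient libraries was applied here is not stated. A manual cutoff sets how many nuclei enter, and random priming with introns counted favours long genes.

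All deposited nuclei were used. Counts were summed per library and set and tested with edgeR 4.0.16 (TMM, filterByExpr, glmQLFTest, Benjamini-Hochberg at 0.05) in R 4.3.3, with storage and primer as terms, or with the library as a block between sets. SE is the log2 fold change over the square root of F. Shares were compared by two-sided exact permutation over 35 placements, with the tail in the observed direction doubled, and with exact (Clopper-Pearson) 95% intervals. Alternatives were DESeq2 1.42.0, upper-quartile scaling, no filter, other Synpo2 limits, thinning, Tcf7l2, the replicate block and leaving out each library. On simulated data, 186 of 200 changed genes were recovered for storage (9602 genes, 6.06% of calls false), 188 for the primer (9781 genes, 12.1% false), 196 against Slc17a6 nuclei (7745 genes, 2.97% false), and 107 and 100 for the storage and primer differences between sets (12115 genes, 11.6% and 5.66% false).

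Members and lists were chosen with earlier results of these data known. Genes named by change were up to 10 per direction for storage and primer, of at least 20 CPM, and up to 15 higher and 10 lower per set comparison, of at least 50 CPM in the higher set. Other genes come from 29 lists. Some genes that these rules would name are not reported here.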

Additional observations from a re-analysis of the deposited data

Results flagged for a closer look

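Among the 4 libraries without a preindex, Slc17a6 in Synpo2 nuclei was low in No_index_frozen 1, at 240 CPM against 277 CPM in the nearest library, a gap that Dixon's test at the 95% level marks. It was the only one among 70 groups of libraries tested, and chance marks about 1 in 20 groups.

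The storage difference (frozen against fresh, log2) differed between Synpo2 nuclei and all other nuclei for Bnc2, by -5.83, and for Rgs6, by 1.15. Bnc2 was at 149 and 131 CPM in the other nuclei of the Index_frozen libraries, the same 2 libraries that held kidney tubule RNA, and at 2.53 and 2.35 CPM in their Synpo2 nuclei. It was at 12.9 to 26.1 CPM in the other nuclei of the remaining libraries. The part of the kidney RNA in this difference was not tested. Rgs6 stayed between 770 and 973 CPM in the other nuclei of all libraries.

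The primer difference (preindex against none, log2) differed between the same sets for 10 of the 19 genes named for the primer. Over all genes tested it differed for 124 of 12390 (1.0%). The 19 genes were named for their primer change in these same Synpo2 nuclei, so the count of 10 is not independent of that choice and nothing is read from it. The difference was greater in Synpo2 nuclei for Meis1 (2.76), Cdh9 (2.13), Myo5b (1.92), Actn2 (1.90), Phex (1.90), Phactr1 (1.89), Baiap2 (1.87), Ngef (1.85) and Rgs9 (1.77), and lower for Megf11 (-1.49). The part of the nuclei with Rgs9 in these differences was not tested as a cause. In Synpo2 nuclei with Tcf7l2, Phactr1 was at 303 ± 135 CPM, compared with 2470 ± 1918 CPM in all Synpo2 nuclei (SD, n = 7).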

How the results depend on the processing

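The share of Synpo2 nuclei was lower in frozen libraries under every alternative run, by 1.08 to 1.56 percentage points, and leaving out single libraries gave -1.56 to -1.31; in nuclei with Tcf7l2 the groups overlapped. By primer, the difference of -0.28 points became -1.5 in nuclei with Tcf7l2, -0.95 and -0.20 at Synpo2 limits of 5 and 2 per 10000, -0.36 after thinning and -0.03 with only nuclei within the Flt1 and Lrp2 limits as the total, and leaving out libraries gave -0.83 to 0.12, with the turn to 0.12 without Index_frozen 1. The 9 genes called for storage became 15 with DESeq2, 127 with no filter on low counts, 22 at a Synpo2 limit of 5 per 10000, 18 in nuclei with Tcf7l2, 16 with the replicate block and 0 without the primer term (456 at an unadjusted p under 0.05), and ranged from 0 to 31 without single libraries. The 309 genes called for the primer became 614, 75 and 17 under no filter, the limit of 5 and Tcf7l2, and 160 to 309 without single libraries (160 without No_index_fresh 2). The 2 genes whose storage difference differed between sets became 6 with DESeq2, 92, 26 and 9 under the same alternatives and 0 to 15 without single libraries. For the primer, 124 became 378, 45 and 35, and 39 to 239 without single libraries (39 without No_index_fresh 2, 72 and 73 without Index_frozen 1 and 2, 239 without Index_fresh 1). Against other, Slc17a6 and Hs3st4 nuclei, the lowest counts without 1 library were 2681, 1805 and 2524.

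In nuclei with Tcf7l2, signs turned by primer for Sh3rf2 (-2.69), Phactr1 (-0.22), Meis1 (-0.58), Cdh9 (-0.79), Rgs9 (-1.22), Baiap2 (-1.14), Drd2 (-0.49), Lef1 (0.13) and Slc17a6 (0.0115), against other nuclei for Drd2 (-1.23), Pde10a (-0.14), Rgs9 (-2.85) and Scn4b (-0.41), and against Slc17a6 nuclei for Rgs9 (-1.43). Rgs9 also turned against other nuclei at the limit of 5 (-0.48). Without single libraries, the primer difference of Ntng1 ran from -0.0378 to 0.14 and the storage differences of Lef1 from -0.50 to 0.0155 and of Prkcd from -0.00839 to 0.24, with -0.0211 for Prkcd without the primer term. In all, 2507 values of named genes kept direction and side of the threshold, 153 kept direction but lost the call, 8 gained it and 19 turned; the cause was not tested.

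Deviations of same-numbered libraries correlated between -0.64 and 0.49, and those of differently numbered libraries between -0.48 and 0.27. The deviations were taken from a fit of storage and primer to only 7 libraries, which itself ties them together. The check thus cannot decide whether replicate numbers paired the libraries. With the replicate block, 214 genes were called for the primer. No_index_frozen 1 gave the fewest Synpo2 nuclei (23) and UFIs in them (283383).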
